A study of Striga hermonthica with 6 samples.

Results

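The loci described here are the short small RNA loci of *Striga hermonthica*, a root parasite of cereal crops. They are stretches of the SHERM assembly of 414 nt or less that carried small RNA, were not marked as *MIRNA* loci, and lay on contigs with 6 or more loci. Of 25056 loci in the count tables, 5294 met this rule (21.1%), on 111 contigs. Another 471 loci without the mark were as short but lay on contigs with fewer loci and were left out, and all 68 *MIRNA*-marked loci were also within the length limit. The rule used length, mark and contig, and no expression value.

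Small RNA was counted in 6 libraries of the kibos ecotype grown on rice, *Oryza sativa* japonica cultivar KitaakeX, for 45 days under 16 h of light at 30 °C. The groups were leaf at stage 6 (replicates 1 and 2), haustorium at stage 6 (replicates 1 and 2) and haustorium for which the labels give no stage (replicates 1 and 3), with 2 libraries each. The haustorium is the organ by which the parasite enters a host root, so those libraries may hold host tissue, and whether reads of rice were counted was not tested. The labels do not say that replicates came from separate plants, so p-values here measure only the spread between libraries, which may be technical.

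In plants, Dicer-like enzymes cut double-stranded RNA into small RNAs, which Argonaute proteins then carry to matching RNA or DNA. Besides the miRNAs, which come from hairpins, most small RNA loci of a plant genome usually give short interfering RNAs, and many of these guide DNA methylation at repeats and near genes. A locus is a stretch of the genome around aligned small RNAs, with ends set by software, so its length is not the length of the RNA it yields. How much of a locus its reads cover is not given, so a length here is not a length of covered sequence. The tables give the position and the reads of a locus but neither the strand nor the size of its RNAs, and no class of small RNA can be given to the short loci from them. Features carry no gene names, so the tissue labels could not be set against tissue markers.

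The libraries held 3031863 to 8381235 counted reads, so that an observed 0 leaves room for 3 reads, which is 0.358 to 0.989 CPM (reads scaled to a common library total). Leaf replicate 1 and stage 6 haustorium replicate 2 stood apart from the other 4 libraries. Their trimmed mean of M values (TMM) scaling factors were 1.74 and 1.78, against 0.609 to 0.979 in the others. Their part in the results is shown by leaving them out.

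Short loci filled a narrow window of length. All but 1 were 401 to 414 nt long, with a median of 407 nt and quartiles of 404 and 412 nt. Each of the 14 lengths in this window held between 295 loci (409 nt) and 523 loci (414 nt). The number of loci then stepped up at the limit, since 1093 loci on the same contigs were 415 nt long. Across all lengths near the window, 424 nt was the most frequent, with 1538 loci.

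**Figure D1:**
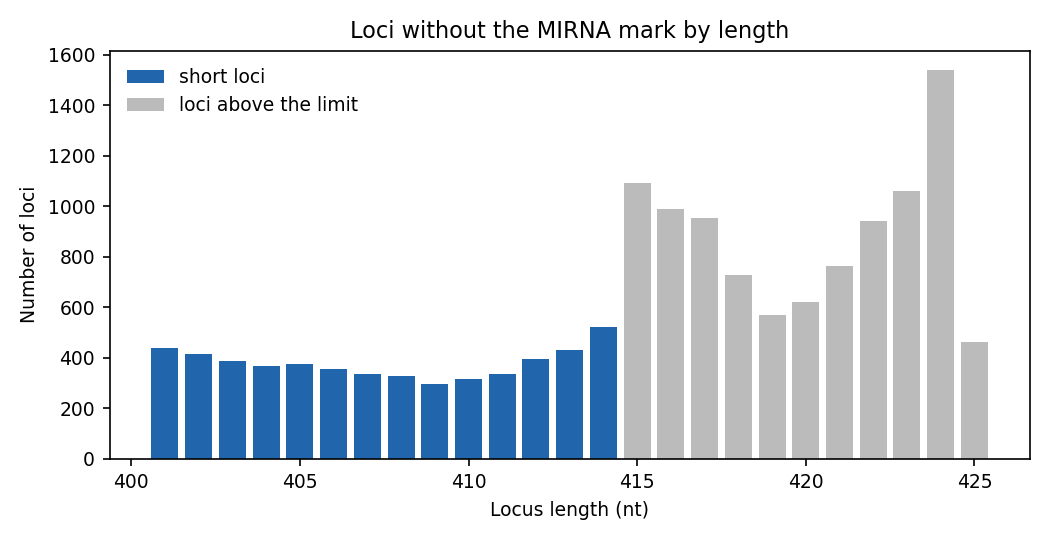
Number of loci without the *MIRNA* mark (y axis) at each locus length in nt (x axis), on contigs with 6 or more loci, with short loci in blue and loci above the limit in grey. The short loci form a nearly flat shelf of 295 to 523 loci per length, below the 1093 loci at 415 nt and the 1538 loci at 424 nt; the 256-nt locus lies outside the axis.

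The single exception was Cluster_8944, which was 256 nt long and lay at the very start of contig CACSLK010020742.1 (positions 1 to 256). In leaf replicates 1 and 2 it had 11 and 27 reads, in replicates 1 and 2 of stage 6 haustorium it had 2 and 31, and in haustorium replicates 1 and 3 it had 144 and 5. Its level was thus highest in haustorium replicate 1, at 17.2 CPM, and no other library passed 4.46 CPM. The groups overlapped. The next shortest by the naming rule were 401 nt long. Cluster_11824 (contig CACSLK010024787.1, positions 365201 to 365601) lay 138 nt from the gene SHERM_21534 and averaged 11.6 ± 0.309 CPM in leaf, 19.2 ± 11.7 CPM in stage 6 haustorium and 14.3 ± 8.32 CPM in haustorium (SD, n = 2 each). Cluster_13966, 246 nt from SHERM_23739, and Cluster_5478, 1796 nt from SHERM_15184, had mean levels of 13.4 and 12.7 CPM over the 3 groups.

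Short loci lay mostly outside annotated genes. The annotation of the same assembly lists 29520 genes by locus tag, without names, strand or exons. Of the short loci, 571 (10.8%) overlapped a gene and another 1198 (22.6%) lay within 1000 nt of a gene. For those outside genes on contigs with a gene, the median distance to the nearest gene was 2979.5 nt. Loci of 420 to 424 nt had a similar makeup, with 9.96% in genes and 23.2% within 1000 nt, while loci of 415 to 419 nt overlapped a gene more often (16.7%) and were within 1000 nt less often (14.2%). These shares are descriptions and were not tested. Levels differed little by position, with a median of the mean CPM of 5.42 in genes, 5.86 within 1000 nt of a gene and 5.31 farther away. On the 61 contigs with 100 or more loci, short loci made up 13.5 to 30.2% of the loci, with a median of 22.3%, so they were spread over the assembly.

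Neighbouring short loci did not generally share a profile. There were 5183 pairs of short loci that followed each other on a contig, and 136 of these pairs were at most 1000 nt apart. Over the 6 libraries, log2(CPM + 1) centred on the median of each library had a median Pearson's r of 0.06 in those 136 pairs, against 0.02 in the 2697 pairs that were 10001 to 100000 nt apart. Correlations over 0.8 occurred in 11 of the close pairs (8.09%) and in 91 of the distant pairs (3.37%). Each correlation rests on 6 libraries and is a description only.

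A close pair that did share its profile was found among the named loci. Cluster_8894 (414 nt) and Cluster_8895 (411 nt) lay 393 nt apart on contig CACSLK010020336.1, 12278 and 13085 nt from the gene SHERM_01522. Cluster_8894 had 35 and 127 reads in leaf replicates 1 and 2, 0 and 297 in replicates 1 and 2 of stage 6 haustorium, and 14 and 62 in haustorium replicates 1 and 3. Cluster_8895 had 29 and 122, 0 and 401, and 6 and 53 reads in the same libraries in the same order. Both were highest in stage 6 haustorium replicate 2 and had no read in stage 6 haustorium replicate 1, with an r of 0.99 over the 6 libraries. The pair was singled out after its values were seen.

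The short loci were many but took few reads. They held 5.18 and 1.73% of counted reads in leaf replicates 1 and 2, 2.13 and 5.28% in replicates 1 and 2 of stage 6 haustorium, and 2.69 and 1.59% in haustorium replicates 1 and 3. Exact Clopper-Pearson 95% intervals reached at most 0.0166 points to either side, which covers counting error only. Leaf replicate 1 and stage 6 haustorium replicate 2 were the 2 highest, and the leaf and haustorium libraries overlapped fully. Over all libraries pooled, 3.16% of reads fell in short loci, which were 21.1% of the loci, whereas loci over 424 nt were 34.5% of the loci with 76.6% of the reads.

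**Figure D2:**
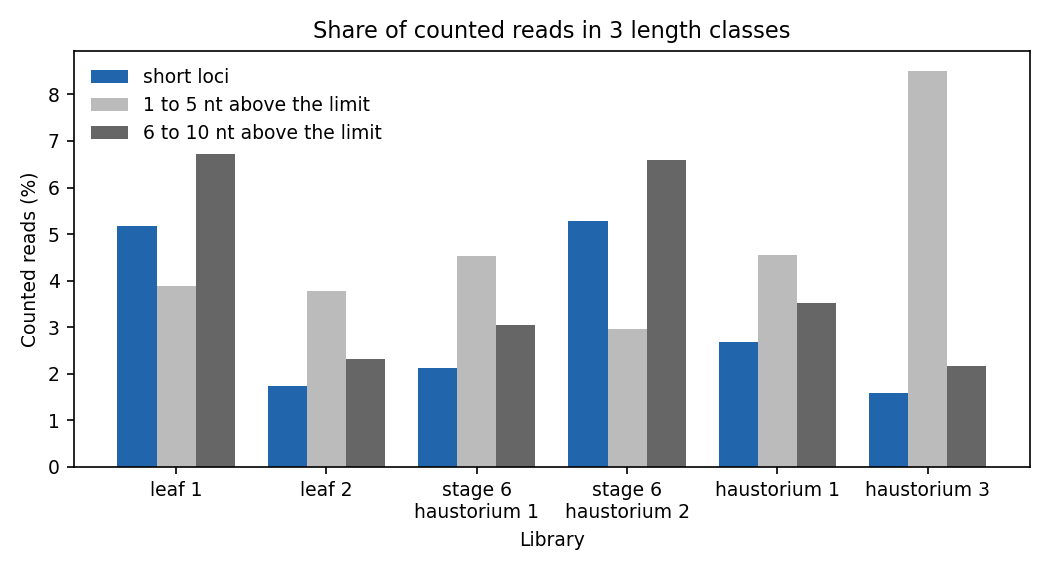
Percent of counted reads (y axis) in each of the 6 libraries (x axis), for short loci (blue), loci of 415 to 419 nt (light grey) and loci of 420 to 424 nt (dark grey). Short loci held 5.18 and 5.28% in leaf replicate 1 and stage 6 haustorium replicate 2, and 1.59 to 2.69% elsewhere, and the loci of 420 to 424 nt had their highest shares in the same pair of libraries.

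The share of reads in short loci did not separate the tissues. It averaged 3.45 ± 2.44% in leaf (SD, n = 2) and 2.92 ± 1.63% in all haustorium libraries (SD, n = 4), a difference of 0.533 points (two-sided exact permutation test over 15 splits, p = 0.867). This test can reach 0.0667 at the lowest. The difference was -1.19 points without leaf replicate 1 and -0.405 points without both libraries that stood apart. Within stage 6, the leaf share was lower than the haustorium share of 3.70 ± 2.22% (SD, n = 2) by 0.25 points (difference -0.25, exact permutation p = 0.667), or -0.402 points without both libraries that stood apart. Stage 6 haustorium exceeded haustorium without a stage, which averaged 2.14 ± 0.777% (SD, n = 2), by 1.57 points (exact permutation p = 0.667), and by -0.00529 points once stage 6 haustorium replicate 2 was left out. With 2 libraries against 2, the smallest possible p is 0.333. In all 3 comparisons the libraries of the groups overlapped.

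Single short loci were weakly and evenly covered. Their mean CPM over the 3 groups ran only between 2.05 and 22.3, with a median of 5.45, and the 5th and 95th percentiles of 3.10 and 9.98 were 3.22-fold apart. A total of 262 short loci (4.95%) had a mean of 10 CPM or more. Summed over the 6 libraries, a short locus had at least 101 reads, a median of 228 and at most 828. The lowest total was much the same elsewhere, with 101 reads at 415 to 419 nt, 107 at 420 to 424 nt and 104 in longer loci. By contrast, 197 loci of 415 to 419 nt, 57 loci of 420 to 424 nt and 2105 longer loci were above the most abundant short locus. Loci were defined on the pooled reads of these same libraries, so length and level are not independent of each other.

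Median levels by library followed the read shares. The median short locus had 8.85 and 2.88 CPM in leaf replicates 1 and 2, 2.97 and 9.35 CPM in replicates 1 and 2 of stage 6 haustorium, and 4.41 and 2.36 CPM in haustorium replicates 1 and 3. The lower library was replicate 2 in leaf and replicate 1 in stage 6 haustorium, and the levels of the 3 groups overlapped. Set against loci of 420 to 424 nt in the same library, the median of log2(CPM + 1) of short loci was lower in 6 of 6 libraries. The mean difference was -0.27 (two-sided exact sign-flip permutation test, p = 0.0313, the smallest that 6 libraries can give). Both classes were defined on the pooled reads of these same libraries, so this p is not independent evidence of a lower level. Set against loci of 415 to 419 nt, a comparison added after the data were seen, the mean difference was 0.08 (exact sign-flip permutation p = 0.812). The sign thus depended on the class that short loci were set against.

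The limit of 414 nt fell where the library profile changed. At 413 nt, median levels were 9.53 CPM in leaf replicate 1 and 8.77 CPM in stage 6 haustorium replicate 2. At 414 nt these were 6.80 and 8.05 CPM, and just above the limit, at 415 nt, 3.95 and 2.59 CPM. Over the same step, haustorium replicate 3 had 2.65, 2.94 and 4.12 CPM. The library with the highest CPM was leaf replicate 1 or stage 6 haustorium replicate 2 for 80.4% of loci at 413 nt, 66.7% at 414 nt and 42.2% at 415 nt. For all short loci this share was 81.9% (4336 loci), against 48.3% of the 4332 loci of 415 to 419 nt, 84.5% of the 4922 loci of 420 to 424 nt and 85.2% of longer loci. In this respect the short loci were like the loci from 420 nt up, while at 415, 416 and 417 nt neither of these libraries had the highest median.

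**Figure D3:**
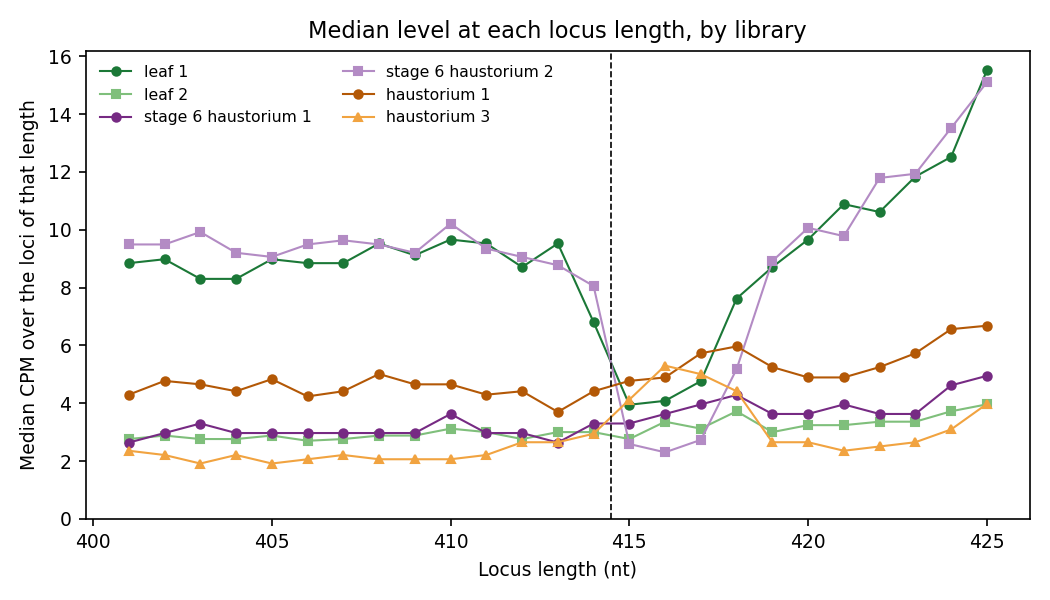
Median CPM (y axis) over the loci of each length in nt (x axis), with a line for each of the 6 libraries and a dashed line at the upper limit of the short loci. Leaf replicate 1 and stage 6 haustorium replicate 2 lie above the other libraries at 401 to 414 nt, drop to 3.95 and 2.59 CPM at 415 nt, and are again the highest from 419 nt, while haustorium replicate 3 peaks at 5.30 CPM at 416 nt.

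Loci just outside the limit also included far more abundant ones. Cluster_16753, the most abundant locus of 415 nt, had 338 and 13 reads in leaf replicates 1 and 2, 1031 and 162 in replicates 1 and 2 of stage 6 haustorium, and 3 and 12080 in haustorium replicates 1 and 3. Its mean of 365 CPM rested mostly on haustorium replicate 3. Cluster_15637 and Cluster_23690, also 415 nt long, averaged 273 and 161 CPM and were highest in the same library. The most abundant members at exactly 414 nt, by comparison, were Cluster_6610 with 15.8 CPM, Cluster_8245 and Cluster_8894 with 12.3 CPM each.

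The 8 most abundant short loci together held 0.429% of the reads of all short loci, so no single locus made up much of the class. Cluster_4406 (402 nt, contig CACSLK010011313.1, positions 1838114 to 1838515, 14514 nt from the gene SHERM_13875) was the first. It had 7.49 and 19.8 CPM in leaf replicates 1 and 2, 37.9 and 55.2 CPM in replicates 1 and 2 of stage 6 haustorium, and 11.0 and 2.50 CPM in haustorium replicates 1 and 3. Its stage 6 haustorium libraries were the 2 highest and did not overlap the other groups. Cluster_24172 (405 nt, contig CACSLK010034598.1, positions 15943229 to 15943633) had 43.8 and 10.9 CPM in leaf, 36.6 and 24.2 CPM in stage 6 haustorium, and 0 and 0.883 CPM in haustorium without a stage. It was close to absent from that last group and well covered in every stage 6 library.

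The remaining 6 of these loci were present in all libraries. Cluster_10454 (411 nt) had 38.7 and 15.5 CPM in leaf, 17.5 and 34.2 CPM in stage 6 haustorium, and 4.41 and 5.74 CPM in haustorium. Cluster_20106 (405 nt) had 28.3 and 15.6 CPM in leaf, 24.7 and 18.1 CPM in stage 6 haustorium, and 9.19 and 7.07 CPM in haustorium. In both loci each stage 6 library, leaf or haustorium, lay above each haustorium library without a stage. Cluster_15641, Cluster_9240 and Cluster_6610 had their highest level in stage 6 haustorium replicate 2 (31.5, 28.0 and 29.2 CPM). Cluster_11457 had 36.2 CPM in leaf replicate 1 and 0.960 CPM in leaf replicate 2, which were the highest and the lowest of its 6 values. Of the 8, Cluster_6610 was the closest to a gene, 128 nt from SHERM_16464.

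Levels of single short loci differed between the libraries of a group. The median absolute difference of log2(CPM + 1) between the libraries of a group was 1.43 in leaf, 1.40 in stage 6 haustorium and 0.96 in haustorium, or 2.70-, 2.63- and 1.94-fold on that scale. The difference passed 2 on the log2 scale for 1635 short loci in leaf (30.9%), 1748 in stage 6 haustorium and 1075 in haustorium. These CPM were not TMM-scaled, so both measures include shifts shared by most loci of a library. The median signed difference, lower replicate number minus higher, was 1.27 in leaf, -1.22 in stage 6 haustorium and 0.57 in haustorium. In leaf, 82.9% of short loci were higher in replicate 1, and in stage 6 haustorium 18.0% were. No library of a group repeated the counts of the other, with a chi-square of 22.8, 15.3 and 17.8 per degree of freedom in leaf, stage 6 haustorium and haustorium.

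Loci of 420 to 424 nt spread a little more than short loci in each group (1.58, 1.46 and 1.00 on the log2 scale in leaf, stage 6 haustorium and haustorium). The mean difference, short loci minus these, was -0.08 (exact sign-flip permutation p = 0.25, the smallest that 3 groups can give). It shrank to -0.03 with TMM-scaled CPM (exact p = 0.75) and to -0.02 with a pseudocount of 0.1 CPM (exact p = 1), so the direction was not shared by all 3 groups there. The order of the short loci was hardly shared between libraries. Spearman's rho across the 5294 loci ran from -0.10 to 0.32 over the 15 pairs of libraries, with a median of 0.11 within groups and 0.14 between groups. It was -0.01 between the leaf libraries. These correlations are across loci, which are not independent replicates and share library depth.

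Many short loci leaned on a single library. Leaf replicate 1 was the highest library for 2101 of them and stage 6 haustorium replicate 2 for 2235, against 80 for leaf replicate 2, 225 for stage 6 haustorium replicate 1, and 458 and 195 for haustorium replicates 1 and 3. In 1215 short loci (23.0%) 1 library held 50% or more of the summed CPM, and in 130 it held 90% or more, most often leaf replicate 1 (69 loci). No read was found in at least 1 library for 1656 short loci (31.3%), against 42.9, 28.5 and 15.8% in those classes in the same order. Among the short loci, 10 had reads in only 1 library. At the other end, 1383 short loci (26.1%) had 10 or more reads in every library, against 21.7, 34.8 and 65.2% in those classes.

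Examples of strong loci with an empty library were named by rule, as the highest counts among short loci with no read elsewhere. Besides Cluster_8895, these were Cluster_19782 and Cluster_22240. Cluster_19782 (409 nt, 390 nt from SHERM_03469) had 355 and 1 reads in leaf replicates 1 and 2, 8 and 29 in stage 6 haustorium, and 3 and 0 in haustorium. Cluster_22240 (410 nt) had 324 and 44 reads in leaf, 5 and 0 in stage 6 haustorium, and 3 and 1 in haustorium. In Cluster_19782 leaf replicate 2 was below most haustorium libraries, so its leaf level rested on replicate 1 alone, whereas in Cluster_22240 both leaf libraries lay above every haustorium library.

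No short locus passed the test between leaf and haustorium, the shoot and the feeding organ of the parasite. edgeR's quasi-likelihood test with Benjamini-Hochberg adjustment over all 24421 loci tested called 0 loci (0%), and so 0 short loci, of which 5149 passed the filter on low counts. At an unadjusted p under 0.05 there were 138 short loci (2.68%), against 3.25% of all loci tested. The fold change set leaf against the mean of the fitted log2 levels of stage 6 haustorium and haustorium without a stage, at equal weight. A near-empty group can thus make it large. The median log2 fold change was 0.12 for short loci and 0.12 for all loci, and 55.6% of short loci were above 0. For short loci it was -0.06 with 47.4% above 0 without leaf replicate 1, 0.38 with 64.2% above 0 without stage 6 haustorium replicate 2, and 0.19 without both. For all loci it was -0.06, 0.28 and 0.10 in the same settings. Scaling by library totals alone moved the median of all loci to 0.32 and the share of short loci above 0 to 63.2%, again with 0 calls. The CPM of every leaf library was above that of every haustorium library in 105 short loci (1.98%, against 1.63% of all loci) and below in 125 (2.36%, against 2.00% of all loci), which is close to the background.

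DESeq2, run as an alternative, called 18 short loci between leaf and haustorium, 10 higher and 8 lower in leaf. That is 0.340% of the short loci, below the 0.802% called among all loci, of which 98 were higher and 103 lower in leaf. The 7 that had no read in any library of 1 organ are described next, and were singled out after their values were seen. edgeR gave each of them an adjusted p of 1.00.

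Of these, 2 loci had reads in leaf only. Cluster_1613 (409 nt, contig CACSLK010003174.1, positions 3024645 to 3025053, 6455 nt from SHERM_10913) had 141 and 55 reads in leaf and 0 in all 4 haustorium libraries. Its pooled leaf level was 105-fold a floor of 3 reads over the pooled haustorium libraries (DESeq2 adjusted p = 0.0204). Cluster_11553 (408 nt, contig CACSLK010024664.1, positions 2045051 to 2045458) had 185 and 31 reads in leaf and 0 in all 4 haustorium libraries. Its pooled leaf level was 116-fold the same floor (DESeq2 adjusted p = 0.0379). These folds allow for counting error in the empty organ only and take the leaf level as counted, so they are not lower bounds. They rest partly on leaf replicate 1: without both libraries that stood apart they were 40.1-fold for Cluster_1613 and 22.6-fold for Cluster_11553.

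The other 5 had reads in haustorium only. Cluster_6382 (412 nt, contig CACSLK010013932.1, positions 4859241 to 4859652) had 0 reads in both leaf libraries, 38 and 49 in stage 6 haustorium and 36 and 49 in haustorium without a stage. It was the most even of the 5. Its pooled haustorium level was 35.7-fold a floor of 3 reads over the pooled leaf libraries (DESeq2 adjusted p = 0.00338). Cluster_17475 (407 nt, 1072 nt from SHERM_28085) had 0 reads in leaf, 23 and 48 in stage 6 haustorium and 111 and 18 in haustorium. Its pooled haustorium level was 41.5-fold that floor. Without both libraries that stood apart these folds were 18.8-fold for Cluster_6382 and 23.2-fold for Cluster_17475. Cluster_18705 (411 nt) had 0 reads in leaf, 2 and 63 in stage 6 haustorium and 73 and 46 in haustorium. Cluster_1750 (401 nt) and Cluster_23013 (414 nt) had 166 and 159 of their haustorium reads in stage 6 haustorium replicate 2. Outside that library, Cluster_1750 had 1, 43 and 53 haustorium reads and Cluster_23013 had 20, 74 and 5. None of the 7 loci overlapped an annotated gene, where 10.8% of all short loci did, and 7 loci are too few to tell apart from that share.

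**Figure D4:**
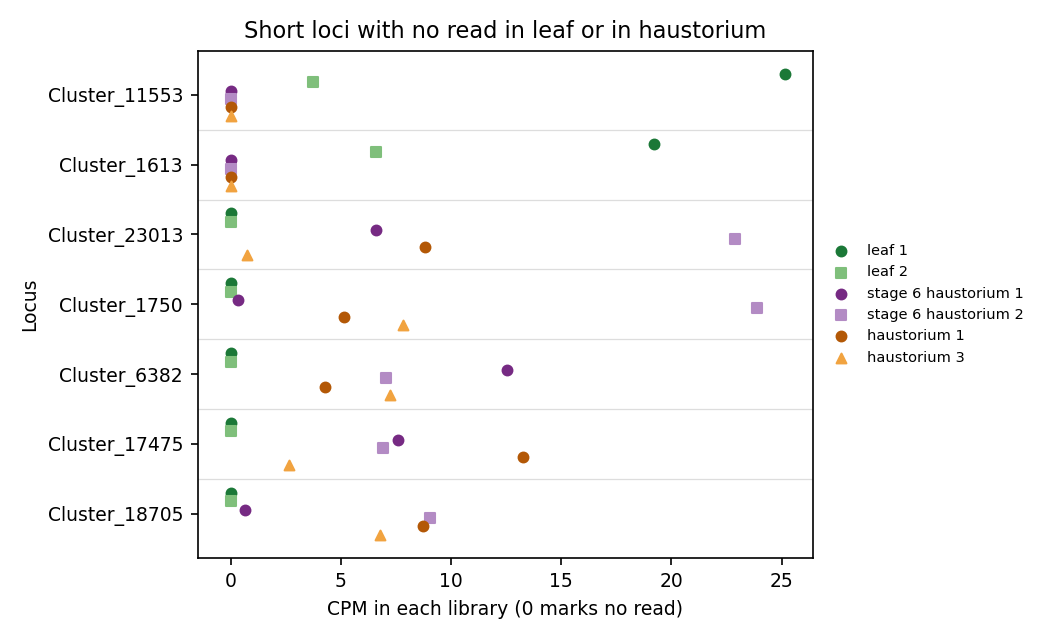
CPM (x axis) of the 7 short loci called by DESeq2 that had no read in leaf or in haustorium (y axis), in each of the 6 libraries. Cluster_11553 and Cluster_1613 have points above 0 in leaf only, the other 5 in haustorium only, and Cluster_6382 runs from 4.30 to 12.5 CPM over its 4 haustorium libraries.

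Among the 262 short loci with a mean of 10 CPM or more, the largest contrasts between leaf and haustorium were named by rule, and none passed the test. Cluster_1398 (413 nt) had 1.77 and 34.0 CPM in leaf, 1.32 and 26.9 CPM in stage 6 haustorium, and 0.119 and 0 CPM in haustorium. Its log2 fold change of 4.91 (SE 1.71, worked back from the test statistic) was the highest, yet the groups overlapped and it was 0.24 without leaf replicate 2. Group means were 17.9 CPM in leaf, 14.1 CPM in stage 6 haustorium and 0.0597 CPM in haustorium, so the value came mostly from the last group. Cluster_16029 (410 nt) had 40.3 and 8.28 CPM in leaf, 0 and 1.01 CPM in stage 6 haustorium, and 7.04 and 10.6 CPM in haustorium, with a log2 fold change of 3.05 (SE 0.89). Cluster_19058 (404 nt) followed with 2.78 (SE 1.37), and had 41.8 and 8.28 CPM in leaf against 0 to 9.64 CPM in haustorium libraries. Its log2 fold change was 6.26 without haustorium replicate 1, which left haustorium without a stage at 0 reads.

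At the other end, Cluster_1859 (402 nt) had 0 and 5 reads in leaf, 97 and 174 in stage 6 haustorium, and 42 and 0 in haustorium. Its log2 fold change was -4.28 (SE 2.29), and -9.06 without leaf replicate 2. Without haustorium replicate 1, which left haustorium without a stage at 0 reads, the value was -0.63. Its stage 6 haustorium libraries stood clear of all others. Cluster_18358 (405 nt, 792 nt from SHERM_29232) had 5.04 and 4.08 CPM in leaf, 20.4 and 26.8 CPM in stage 6 haustorium, and 22.4 and 9.72 CPM in haustorium. Its leaf libraries were below every haustorium library, and its log2 fold change was -2.10 (SE 0.69). Cluster_18630 (409 nt) had a log2 fold change of -1.71 (SE 0.68), with 6.40 and 1.44 CPM in leaf and 2.50 to 34.5 CPM in haustorium libraries, which overlapped. Adjusted p-values of these 6 loci in edgeR's quasi-likelihood test were all 1.00.

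Leaf and haustorium were also compared at stage 6 alone, where both tissues are labelled with the same stage. edgeR called 0 of 24421 loci (0%), 72 short loci had an unadjusted p under 0.05 (1.40%, against 2.00% of all loci), and the median log2 fold change of short loci was 0.02. It was -0.17 without leaf replicate 1, 0.42 without stage 6 haustorium replicate 2 and 0.15 without both. The median of all loci was -0.11, 0.28 and 0.07 in the same settings. DESeq2 called 13 short loci (0.246%, against 0.463% of all loci). Levels in both leaf libraries were above both stage 6 haustorium libraries in 254 short loci (4.80%, against 4.76% of all loci) and below in 545 (10.3%, against 8.55% of all loci).

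Within the organ, stage 6 haustorium was set against haustorium without a stage. edgeR called 0 of 24421 loci (0%), with 152 short loci at an unadjusted p under 0.05 (2.95%, against 4.39% of all loci). DESeq2 called 35 short loci (0.719%, against 1.63% of all loci), of which 23 were higher and 12 lower at stage 6. Among all loci called, 193 were higher and 200 lower. Levels in both stage 6 libraries were above both libraries without a stage in 1397 short loci (26.4%, against 25.7% of all loci) and below in 289 (5.46%, against 8.98% of all loci). The median log2 fold change of short loci was 0.07, with 52.8% above 0. With library totals alone as the scale it was 0.82 with 76.8% above 0, and the median of all loci was then 0.74, against 0.02 under TMM scaling. Under TMM scaling without stage 6 haustorium replicate 2, the median was -0.32 for short loci and -0.28 for all loci, so the direction rested on that library.

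Named by rule among the short loci of 10 CPM or more, Cluster_1398, Cluster_15553 and Cluster_24172 had the highest fold changes of stage 6 haustorium against haustorium. Cluster_15553 (413 nt, contig CACSLK010027829.1, positions 224665 to 225077) had 22.8 and 12.7 CPM in stage 6 haustorium, against 0.239 and 0.147 CPM in haustorium without a stage, and 35.4 and 1.80 CPM in leaf. Its log2 fold change of 6.04 (SE 1.50) had an adjusted p of 0.999 in edgeR, and DESeq2 called it (adjusted p = 0.0213). For Cluster_24172 the log2 fold change was 5.40 (SE 1.79) and for Cluster_1398 it was 6.54 (SE 2.53), or 4.09 without stage 6 haustorium replicate 2. Both stage 6 libraries of Cluster_15553 and Cluster_24172 were far above the haustorium libraries without a stage, while those of Cluster_1398 were at 1.32 and 26.9 CPM.

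The lowest were Cluster_16029, Cluster_24873 and Cluster_8224. Cluster_16029 had a log2 fold change of -5.01 (SE 1.27) with an adjusted p of 0.999 in edgeR, and DESeq2 called it (adjusted p = 0.0213). It had 0 and 7 reads in stage 6 haustorium, against 59 and 72 reads in haustorium without a stage. Cluster_24873 (406 nt), which overlapped the gene SHERM_09018, had 0.989 and 1.15 CPM in stage 6 haustorium, against 22.2 and 0.294 CPM in haustorium, so its log2 fold change of -3.71 (SE 2.11) came from 1 library and was 0.85 without haustorium replicate 1. Cluster_8224 (402 nt) had 3.63 and 4.60 CPM in stage 6 haustorium, against 16.6 and 4.71 CPM in haustorium, for a log2 fold change of -1.85 (SE 0.98). Its level was highest in leaf replicate 1, at 39.6 CPM.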

How the data were processed

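For each library the authors deposited raw read counts per locus, made with ShortStack 4.0.4 at its defaults on the SHERM assembly after removal of 3′ adapters, with coordinates and the *MIRNA* mark. The command printed for another species asked for adapter trimming and de novo *MIRNA* search and set no alignment option, and the series text and the methods name different sequencers. Counts were used as deposited. Length was end minus start plus 1, and CPM is a count scaled to the summed counts of its library. edgeR 4.0.16 (R 4.3.3) tested all loci in 1 fit of 6 libraries, with TMM scaling, filterByExpr, the quasi-likelihood test, Benjamini-Hochberg adjustment at 0.05 and 3 residual degrees of freedom, and only short loci are reported. Read shares and class medians went through exact permutation tests over libraries. The scripts were tested on simulated data. Log2 levels use a pseudocount of 1 CPM. The SE beside a log2 fold change is that fold change without its sign over the square root of the F statistic of edgeR's test. It is approximate, since the test itself gives no SE.

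Alternatives were DESeq2 1.42.0, other scalings, filters and pseudocounts, another length limit or contig minimum, a block for the replicate number, and leaving out libraries in turn. The members and lists were chosen with earlier results of these data known. Loci were named by rule: the 8 most abundant, the 4 shortest, the 3 most abundant at the limit, the 3 highest and lowest fold changes of leaf against haustorium and of stage 6 haustorium against haustorium among loci of 10 CPM or more, the 3 highest counts with a library at 0, any called by edgeR (none), and 3 just above the limit. Loci on contigs with fewer than 6 loci and reads outside loci were not analysed here. The authors' genome sequence was not used here, so no locus sequence is given.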

Additional observations from a re-analysis of the deposited data

Results flagged for a closer look

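Over the 4 haustorium libraries, 39 sets of values were examined for a library far from the others (36 named loci and 3 summaries), and 5 had one. Chance gives about 1 in 20 such sets, and several loci were named for their extremes. The median log2(CPM + 1) of short loci minus that of loci of 420 to 424 nt was -0.12 in haustorium replicate 3, against -0.32, -0.32 and -0.31 in the other haustorium libraries. Stage 6 haustorium replicate 2 stood far above the other haustorium libraries in Cluster_1398, at 26.9 CPM, and in Cluster_8895, at 57.7 CPM. Haustorium replicate 1 did so in Cluster_24873, at 22.2 CPM, and in Cluster_8224, at 16.6 CPM.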

How the results depend on the processing

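edgeR called 0 short loci in each comparison under other size factors, library totals alone, no filter, a floor of 10 counts, without each library in turn and without both libraries that stood apart (chosen after seeing the data), as it did in the stage 6 libraries alone and the haustorium libraries alone for the comparisons within them. DESeq2 called 18, 13 and 35 short loci for leaf against all haustorium, leaf against haustorium of stage 6, and the stages of haustorium. A replicate block left 0 calls, and moved the leaf minus haustorium difference in read share to -0.389 points. Over all loci the deviations of same-numbered stage 6 libraries correlated at -0.13, and over short loci at 0.09, and the crossed pairing, added after seeing the data, gave 0 calls. Stage 6 haustorium and haustorium share only replicate number 1, so no block could be fitted to their read shares. Leaving out each library, the difference in read share ran from -1.19 to 2.26 points for leaf minus haustorium, from -1.97 to 1.47 for leaf minus stage 6 haustorium and from -0.00529 to 3.14 for stage 6 haustorium minus haustorium. Without both libraries that stood apart, the first was -0.405 and the last -0.00529 points. A length limit of 400 nt, which leaves 1 locus, gave -0.000339 and -0.00064 points for these same differences. The median log2 level of short loci minus the class of 420 to 424 nt ran from -0.30 to -0.26 without each library and was -0.24 without both that stood apart, where fewer libraries cannot reach the threshold, and it was 0.077 against loci of 415 to 419 nt. Among named loci, the stage 6 haustorium against haustorium value of Cluster_24873 ran from -4.68 to 0.85 without each library, the last without haustorium replicate 1. The cause of these changes was not tested. A pseudocount of 0.1 CPM, TMM-scaled CPM, a floor of 10 reads and all other loci as the class kept the direction and the side of the threshold of the level difference. Short loci had 101 reads or more in all, and the median coefficient of variation between libraries that edgeR fitted to them was 0.88.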
